A study of Mus musculus with 7 samples.

Results

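Integrin and laminin subunits are the rows of the deposited count table whose gene symbol names an integrin alpha or beta subunit or a laminin alpha, beta or gamma chain. There were 37 such genes of 29777 in the table: 4 integrins of leukocytes (Itgal, Itgam, Itgax and Itgb2), 22 other integrins and 11 laminin chains. They were measured in 4 homozygous (Runx3-P2-/-) and 3 heterozygous (Runx3-P2+/-) RNA-seq libraries. GFP-positive cells had been sorted out of dorsal root ganglia of the neck (cervical) region of ICR mouse embryos at E11.5, and the RNA was amplified with a low-input kit. The labels name the cells TrkC neurons, the precursors of proprioceptors. The Runx3-P2 allele disrupts Runx3, a Runt-family transcription factor, and marks the cells with GFP. Cells of both genotypes hold it, and no wild-type library is among the samples. The design text speaks of pools of 4 for each genotype. The labels do not say whether libraries of a genotype came from separate litters, and p-values measure only the spread between these libraries.

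Integrins are receptors made of an alpha and a beta subunit that join cells to the extracellular matrix or to other cells, and they signal through talin, kindlin and focal adhesion kinase. Laminins are trimers of an alpha, a beta and a gamma chain that build basement membranes, and several integrins bind them. In peripheral ganglia, integrins of the beta1 class are known for neurite growth on laminin. Integrins of the beta2 class are known from leukocytes, and the integrin of Itga2b and Itgb3 from platelets and their precursors.

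Total counts ranged from 11184237 to 13986835 per library, and the 37 genes held between 0.073% and 0.111% of them. Runx3 averaged 9.17 ± 3.06 CPM in homozygotes and 85.3 ± 15.7 CPM in heterozygotes (SD, n = 4 and 3) and fell by 3.22 ± 0.30 on the log2 scale (SE; edgeR adjusted p = 0.00593). CPM is a gene's count relative to the scaled library size, on the usual counts-per-mega scale. The sensory neuron genes Tubb3, Isl1 and Pou4f1 had at least 8399 counts in every library. They are abundant genes of a list of 14, of which 11 had a negative log2 fold change. Pou4f1 was at 673 to 1745 CPM in homozygotes, lowest in library 3, and at 1840 to 1941 CPM in heterozygotes. Its edgeR adjusted p was 0.617. Others of the list were scarce, such as Tlx3 with 17 to 30 counts and Eya1 with 0 to 129. Homozygote library 3 and heterozygote library 3 stood apart, at scores of 65.9 and -68.3 on the main axis of a principal component analysis over the 500 genes that varied most; the others lay between 16.7 and 20.6 in homozygotes and between -29.3 and -25.3 in heterozygotes. Values without both are given beside the genes with the larger differences.

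No integrin or laminin gene passed the test at an adjusted p below 0.05 (edgeR quasi-likelihood test, Benjamini-Hochberg adjustment over 14040 genes), where 0.0499% of all genes tested did (0.0142% higher, 0.0356% lower). Counts were high enough for testing in 29 of the 37 genes. At an unadjusted p below 0.05 by edgeR, 8 of the 29 were higher and 1 was lower in homozygotes, against 7.75% and 4.88% of all genes tested. The genotypes did not overlap for 7 higher and 2 lower genes, against 6.6% and 5.78% of all genes. DESeq2, run on the same counts, called 6 of the 29 higher and 0 lower, against 4.77% of all genes (3.46% higher and 1.31% lower); before adjustment it had 10 higher and 2 lower, against 9.04% and 5.13% of all genes. The 6 were Itgam, Itgb2, Itga2b, Itgb5, Itgb8 and Lama1. Of these, all but Itgb2 stand among the 464 genes past 2-fold and an adjusted p of 0.05 in the authors' deposited table, which are 3.56% of its genes with an adjusted p. With the sign turned to homozygote over heterozygote, log2 fold changes in the authors' deposited table are 3.18 for Itgam, 2.98 for Itga2b, 1.96 for Itgb5, 1.76 for Itgb8, 1.38 for Lama1 and 1.5 for Itgb2, which has no adjusted p there. limma-voom called 0 of the 29, against 0.0427% of all genes, with 6 higher and 2 lower before adjustment, against 5.82% and 5.96% of all genes. edgeR's adjusted quasi-dispersion called 0, against 0.434% of all genes (0.178% higher), with 10 higher and 2 lower before adjustment, against 8.71% and 6.06% of all genes. Without both libraries 3, edgeR called 0 of the 31 genes then tested, against 0.0835% of all genes, and DESeq2 called 3 higher, against 1.22% of all genes. The 3 were Itgam, Itgb2 and Itga2b, and the DESeq2 calls of Itgb5, Itgb8 and Lama1 were lost (DESeq2 adjusted p = 0.146, 0.447 and 0.0569). This setting left 5 libraries, and fewer libraries can by themselves lose a call. The median log2 fold change of the 29 genes, homozygote over heterozygote, was 0.38, and that of all genes tested was -0.0177. Genes with low counts in heterozygotes could pass the count filter through the homozygotes alone, so the median is a description.

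**Figure D1:**
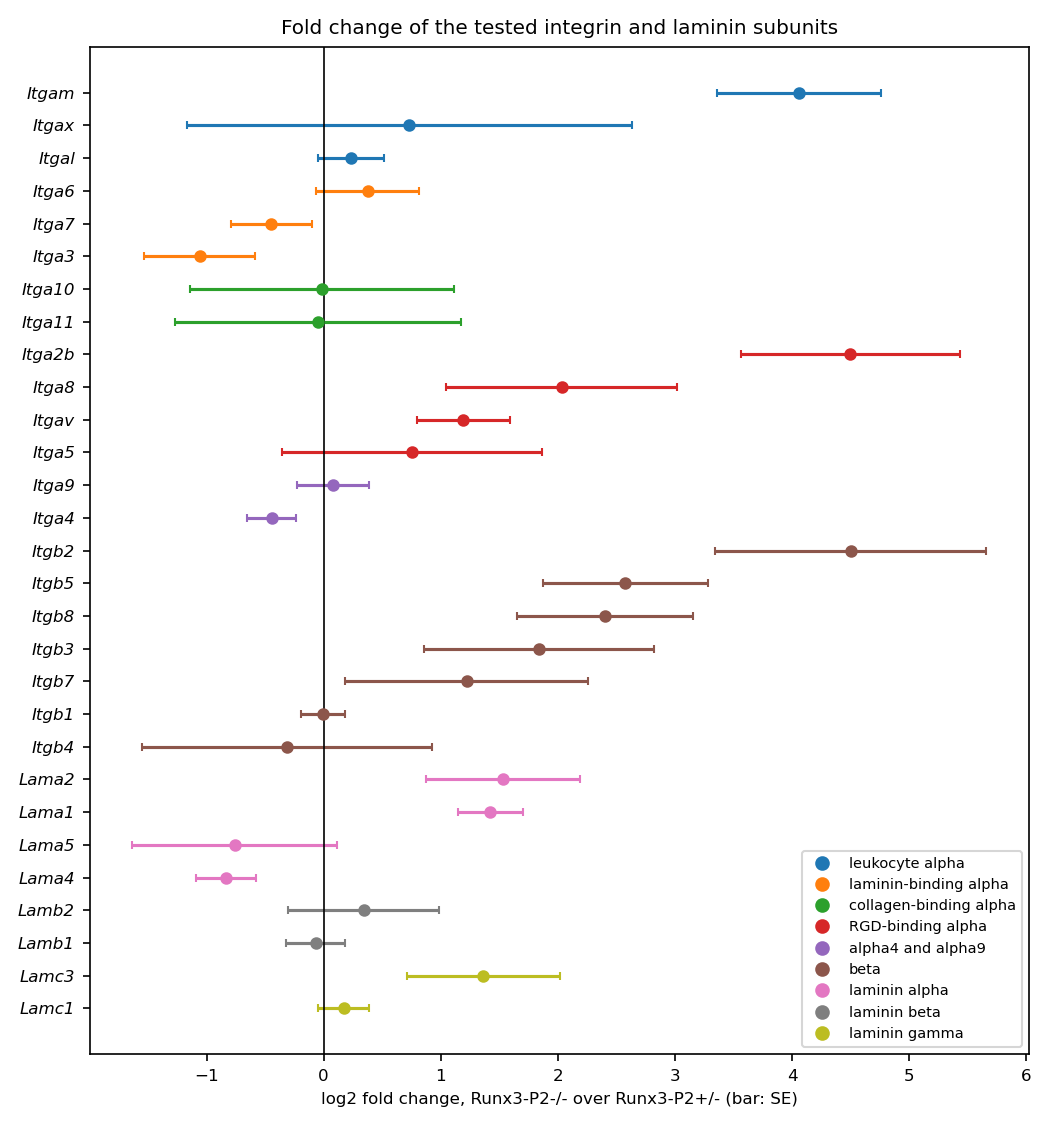
Log2 fold changes of the 29 tested integrin and laminin genes, Runx3-P2-/- over Runx3-P2+/-, on the horizontal axis, with standard errors as bars and the role of each subunit as colour. Itgb2, Itga2b and Itgam lie at 4.06 or above, and Itga3 (-1.06) lies lowest.

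Of the 4 leukocyte integrins, Itgam and Itgb2 did not overlap between genotypes over all libraries, and Itgal and Itgax did. Itgam encodes the alpha subunit CD11b, which pairs with beta2 on macrophages and granulocytes. It had 14.4, 18, 79.7 and 27.6 CPM in homozygote libraries 1 to 4, against 3.2, 1.64 and 1.39 CPM in heterozygote libraries 1 to 3. Every homozygote library lay above every heterozygote one, and homozygote library 3 was the highest. Homozygotes over heterozygotes gave a log2 fold change of 4.06 ± 0.70 (SE; edgeR adjusted p = 0.0634, 8.23e-09 by DESeq2). Without homozygote library 3 it was 3.26 and passed (edgeR adjusted p = 0.0458), and without both libraries 3 it was 3.04 (edgeR adjusted p = 0.134).

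Itgb2 encodes the beta2 subunit that all 4 leukocyte alpha subunits CD11a to CD11d pair with. It had 19.6, 23.3, 68.8 and 3.31 CPM in homozygote libraries 1 to 4, against 2.03, 1.73 and 0 CPM in heterozygote libraries 1 to 3. The 0 of heterozygote library 3 allows up to 0.261 CPM (3 counts). The groups did not overlap, but homozygote library 4 lay close to the heterozygotes. This gave a log2 fold change of 4.50 ± 1.16 (SE; edgeR adjusted p = 0.149, 0.0328 by DESeq2), and 3.03 without both libraries 3 (edgeR adjusted p = 0.35). Summed over libraries, the counts gave a ratio of 22.5 (95% exact interval 16.8 to 30.9), which covers counting error only.

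Itgal, the CD11a subunit of the lymphocyte integrin, had high levels in both genotypes. It had 155, 129, 90.7 and 143 CPM in homozygote libraries 1 to 4, against 112, 66.3 and 152 CPM in heterozygote libraries 1 to 3. The groups overlapped, and the log2 fold change of 0.23 ± 0.28 was smaller than its error (SE; edgeR adjusted p = 0.823). Dropping both libraries 3 removed the overlap, and the value was 0.67 (edgeR adjusted p = 0.606). Fewer libraries reach this more easily, and the share of all genes without overlap was not computed for them. Per kilobase of annotated exon, Itgal averaged 19.7 ± 4.26 CPM in homozygotes and 16.8 ± 6.51 CPM in heterozygotes (SD, n = 4 and 3), second among the 37 genes after Itgb1. Heterozygote library 3 had 1745 counts of Itgal, 0 of Itgb2 and 1 of Ptprc (CD45, carried by all leukocytes). No exon of another gene overlaps those of Itgal in GENCODE vM21, an annotation of another build than the authors' files.

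Itgax, the CD11c subunit of dendritic cells, was found in few libraries. It had 0, 1.4, 3.85 and 0 CPM in homozygote libraries 1 to 4, against 2.34, 0 and 0 CPM in heterozygote libraries 1 to 3, where each 0 allows up to 0.219 to 0.261 CPM. Its log2 fold change of 0.73 ± 1.90 (SE; edgeR adjusted p = 0.934) turned to -1.31 without both libraries 3. Heterozygote library 1 held all 30 heterozygote counts. Without it the fitted value was 7.03, which depends on the prior count since the other heterozygotes were at 0. The remaining alpha subunits of blood cells, Itgad and Itgae, had 15 and 32 counts over all libraries and were not tested.

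**Figure D2:**
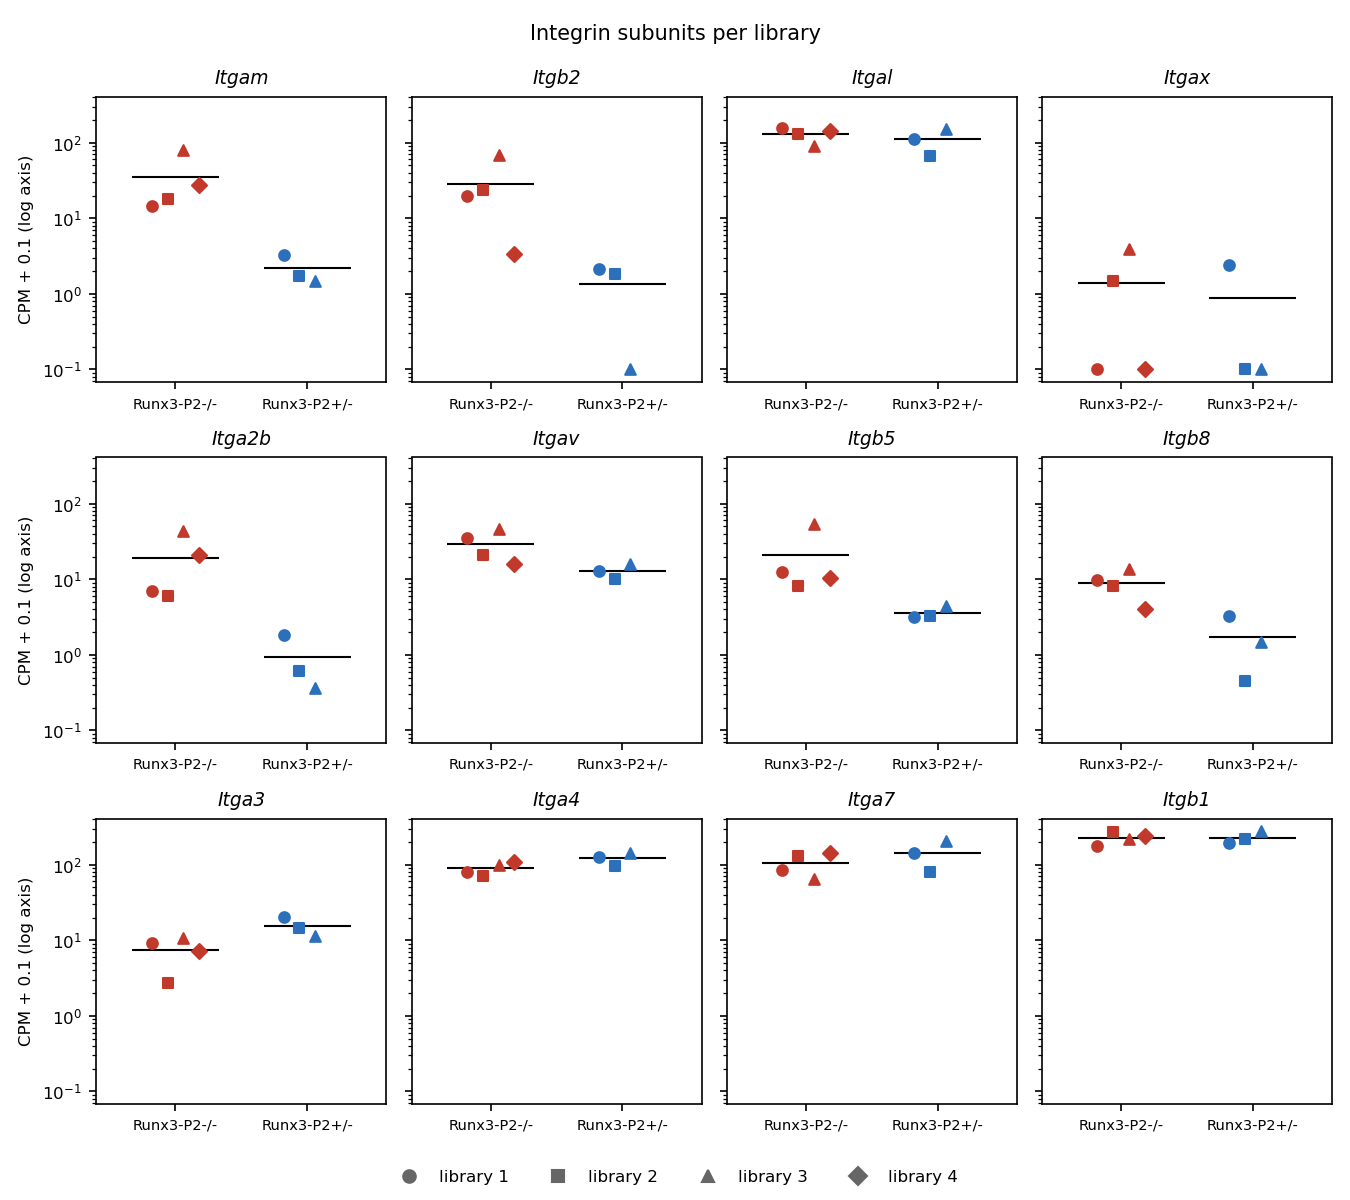
CPM plus 0.1 on a log axis of 12 integrin subunits, 1 point per library, with Runx3-P2-/- left of Runx3-P2+/- and the group mean as a line. The homozygotes lie above the heterozygotes without overlap for Itgam, Itgb2, Itga2b, Itgb5 and Itgb8 and below them for Itga3.

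Leukocyte and macrophage markers differed in the same direction as Itgam and Itgb2, while the 3 tested erythroid markers did not. Of 19 leukocyte and macrophage markers in the table, 16 were higher in homozygotes without overlap, against 6.6% of all genes, and none was lower. The log2 fold changes of the 19 markers had a median of 3.96. By edgeR 0 passed, and 17 were higher before adjustment, against 7.75% of all genes. DESeq2 called 14 of the 19 higher, against 3.46% of all genes. Without both libraries 3 the median was 2.14. Then edgeR called 2 markers, against 0.0835% of all genes, and DESeq2 called 12 higher, against 1.22%. In those libraries 17 markers were higher without overlap, which fewer libraries reach more easily, and that share of all genes was not computed. Cd52, a surface glycoprotein of leukocytes, had 13.4, 18.7, 85.5 and 17.9 CPM in homozygote libraries 1 to 4, against 3.04, 2.59 and 0.869 CPM in heterozygote libraries 1 to 3. Lcp1, the plastin of leukocytes, had 84.7, 83.9, 389 and 80.3 CPM in homozygote libraries 1 to 4, against 15.5, 11.4 and 0.522 CPM in heterozygote libraries 1 to 3. Both were higher in every homozygote library. The summed level of the 19 markers was 779 to 4739 CPM in homozygotes and 291 to 369 CPM in heterozygotes. Coro1a, a coronin of leukocytes, made up most of the heterozygote sums, at 361 ± 176 CPM in homozygotes and 239 ± 39.2 CPM in heterozygotes (SD, n = 4 and 3). Without it, a step chosen after its values were seen, the sums were 532, 657, 4119 and 766 CPM in homozygote libraries 1 to 4, against 152, 143 and 8.09 CPM in heterozygote libraries 1 to 3. In heterozygote library 3, 9 of the 19 markers had at most 1 count and 5 had 0: Cx3cr1, C1qc, Cd14, Lyz2 and Mrc1. Homozygote library 3 was highest both in the sum without Coro1a and in Itgam, Itgb2 and Itgb5. This was not particular to them: it was also the highest homozygote in Itga2b, Itgav, Itgb3, Itgb8, Lama1, Lamc1 and Lamc3, among others. In Itgal, Itga7 and Lama4, among others, it was the lowest homozygote. The part of blood cell RNA in the integrin differences was not tested. In these bulk samples, more cells of a type and more RNA per cell cannot be told apart.

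**Figure D3:**
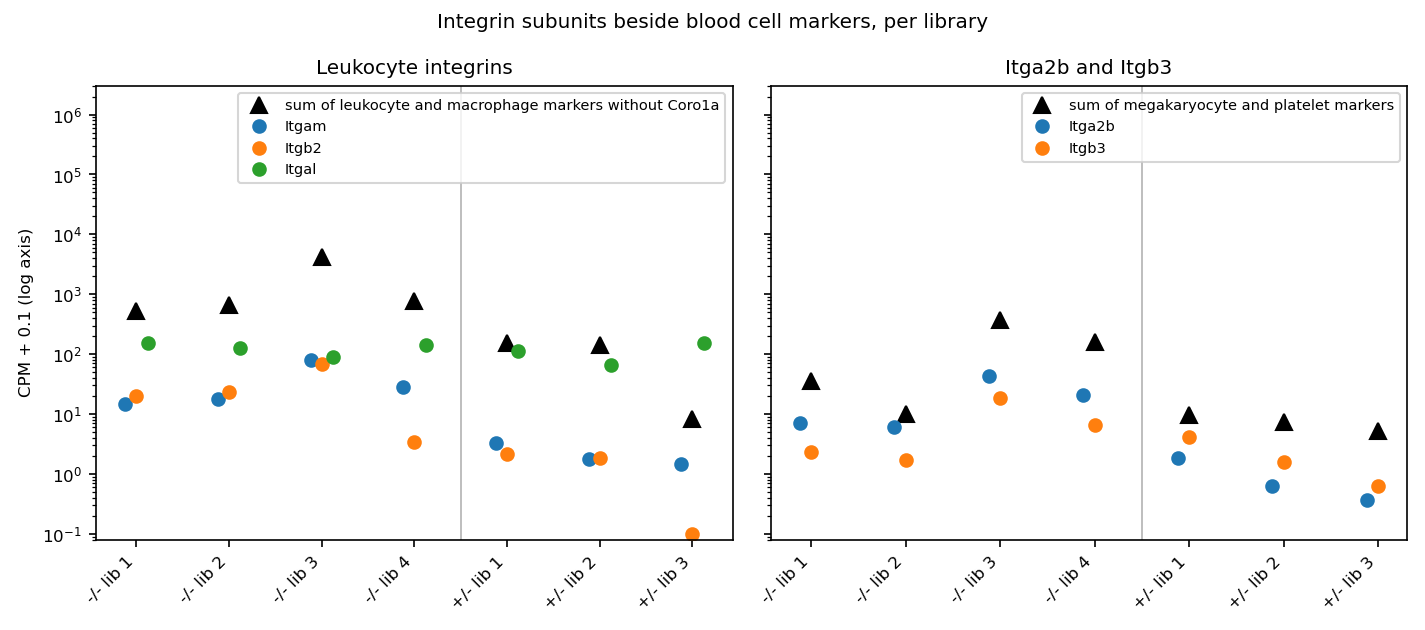
CPM plus 0.1 on a log axis in each library, homozygotes left of heterozygotes. Triangles are the summed blood cell markers, of leukocytes without Coro1a on the left and of megakaryocytes and platelets on the right, and circles are integrin subunits. Itgam and Itgb2 are high where the leukocyte sum is high, except for Itgb2 in homozygote library 4, while Itgal stays between 66.3 and 155 CPM.

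Itga2b, the alpha subunit of the fibrinogen receptor of platelets, had 6.86, 5.91, 43.3 and 20.9 CPM in homozygote libraries 1 to 4, against 1.72, 0.519 and 0.261 CPM in heterozygote libraries 1 to 3. The groups did not overlap, and homozygote libraries 3 and 4 were highest. On the log2 scale the fold change was 4.50 ± 0.93 (SE; edgeR adjusted p = 0.106, 1.83e-06 by DESeq2), and 3.31 without both libraries 3 (edgeR adjusted p = 0.343). Its partner Itgb3 had 2.19, 1.63, 18.7 and 6.44 CPM in homozygote libraries 1 to 4, against 4.05, 1.47 and 0.522 CPM in heterozygote libraries 1 to 3. Itgb3 overlapped between genotypes, with a log2 fold change of 1.84 ± 0.98 (SE; edgeR adjusted p = 0.502), and 0.31 without both libraries 3. Both subunits were highest in homozygote library 3 and next in library 4.

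Beside them, the summed level of 9 megakaryocyte and platelet markers was 35.4, 9.8, 374 and 162 CPM in homozygote libraries 1 to 4, against 9.43, 7.18 and 5.13 CPM in heterozygote libraries 1 to 3. Of these markers 7 were tested and 0 passed by edgeR. Before adjustment 5 were higher, against 7.75% of all genes. DESeq2 called 3 of the 7, again higher, against 3.46% of all genes. Gp1bb alone had a negative log2 fold change, of -0.37 (edgeR adjusted p = 0.881). It had 1.9, 6.38, 2.32 and 2.03 CPM in homozygote libraries 1 to 4, against 3.51, 4.32 and 4.43 CPM in heterozygote libraries 1 to 3. Gp1bb thus held most of the sum in homozygote library 2 and in heterozygote libraries 2 and 3. Pf4, a chemokine of platelets, had 14.7, 0.622, 227 and 95.5 CPM in homozygote libraries 1 to 4, against 2.81, 0.259 and 0.174 CPM in heterozygote libraries 1 to 3. Homozygote library 2 thus had Pf4 within the heterozygote range and Itga2b above it. Gp5 had 0, 0, 24 and 0 counts and Gp6 0, 0, 43 and 5 counts in homozygote libraries 1 to 4, and both were at 0 in every heterozygote library. Ppbp, another platelet chemokine, had 8.75, 0.0778, 66.3 and 31.8 CPM in homozygote libraries 1 to 4, against 0.078, 0.0865 and 0 CPM in heterozygote libraries 1 to 3. Without both libraries 3, the median log2 fold change of the 7 markers was 2.81 (4.36 with them), and DESeq2 called 0. The part of these cells in the Itga2b difference was not tested.

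Promoter sequences of the 4 integrins with a higher level by DESeq2 that the reference table holds are shown because DESeq2 called these genes between genotypes that differ in Runx3. They are the 250 bases before the annotated start, from RefSeq on GRCm38.p6, 5′ to 3′ on the gene's strand; 23 of the 37 genes had an entry. Capitals mark GAGGAA, a core of sites for PU.1 and other Ets factors of blood cells, on either strand, where the minus strand reads TTCCTC. Itgam lies at chr7:128062390-128062639 (plus strand), Itga2b at chr11:102469884-102470133 (minus strand), Itgb5 at chr16:33829415-33829664 (plus strand) and Itgb8 at chr12:119238277-119238526 (minus strand).
Itgam: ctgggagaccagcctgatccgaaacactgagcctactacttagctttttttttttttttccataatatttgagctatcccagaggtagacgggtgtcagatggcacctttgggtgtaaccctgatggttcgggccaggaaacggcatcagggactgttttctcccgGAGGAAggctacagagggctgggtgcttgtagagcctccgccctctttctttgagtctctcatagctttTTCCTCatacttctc
Itga2b: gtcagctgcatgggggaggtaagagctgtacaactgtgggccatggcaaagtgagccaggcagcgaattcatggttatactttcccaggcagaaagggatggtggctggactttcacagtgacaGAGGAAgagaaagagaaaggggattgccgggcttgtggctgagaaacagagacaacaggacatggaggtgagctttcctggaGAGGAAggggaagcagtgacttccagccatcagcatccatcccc
Itgb5: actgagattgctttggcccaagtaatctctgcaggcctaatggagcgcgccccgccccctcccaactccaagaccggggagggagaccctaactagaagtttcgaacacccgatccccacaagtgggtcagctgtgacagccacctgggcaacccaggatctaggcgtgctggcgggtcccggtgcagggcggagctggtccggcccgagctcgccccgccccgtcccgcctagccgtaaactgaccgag
Itgb8: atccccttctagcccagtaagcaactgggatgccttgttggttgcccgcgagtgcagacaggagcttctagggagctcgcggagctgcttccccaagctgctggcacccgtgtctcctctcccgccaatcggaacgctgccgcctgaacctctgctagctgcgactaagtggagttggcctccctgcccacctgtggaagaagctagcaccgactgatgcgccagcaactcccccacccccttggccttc

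GAGGAA was found 84 and 15 bases before the start in Itgam and 126 and 44 bases before it in Itga2b, and not in these windows of Itgb5 and Itgb8. It was in 23.3% of all 32851 promoter windows of this length, and in 13 of the 26 windows of integrin and laminin genes. The Runx cores TGTGGT and TGCGGT, searched on both strands, were in none of the 4 windows. Over all windows they were in 14% and 5.1%, and among the integrin and laminin genes in Itga3 and Itga4 (TGTGGT) and in Itga8 (TGCGGT). The motifs were chosen after the fold changes were known, and a match of letters is not a site of binding.

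Among the other subunits that bind the RGD sequence of fibronectin and vitronectin, Itgav, the alphaV subunit that pairs with beta1, beta3, beta5, beta6 and beta8, had 34.6, 21.1, 45.7 and 15.6 CPM in homozygote libraries 1 to 4. The heterozygotes had 12.9, 9.86 and 15.6 CPM. Homozygote library 4 lay at the level of the highest heterozygote. Its fold change, on the log2 scale, was 1.19 ± 0.40 (SE; edgeR adjusted p = 0.24), and 1.07 without both libraries 3. In the narrower window of label dates, without homozygote libraries 1 and 3, it was 0.52 (edgeR adjusted p = 0.756).

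Itgb5, a partner of alphaV in vitronectin binding, had 12.3, 7.93, 53.8 and 10.2 CPM in homozygote libraries 1 to 4, against 3.04, 3.2 and 4.35 CPM in heterozygote libraries 1 to 3. The lowest homozygote lay above the highest heterozygote, and homozygote library 3 stood far above the rest. Homozygotes over heterozygotes gave a log2 fold change of 2.57 ± 0.70 (SE; edgeR adjusted p = 0.162, 0.00358 by DESeq2), 1.52 without homozygote library 3 and 1.70 without both libraries 3 (edgeR adjusted p = 0.268 and 0.454).

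Itgb8, the partner of alphaV known for releasing latent TGF-beta, had 9.77, 8.01, 13.5 and 3.9 CPM in homozygote libraries 1 to 4, against 3.2, 0.346 and 1.39 CPM in heterozygote libraries 1 to 3. Here homozygote library 4 and heterozygote library 1 were close. This gave a log2 fold change of 2.41 ± 0.75 (SE; edgeR adjusted p = 0.208, 0.0268 by DESeq2), and 2.02 without both libraries 3 (edgeR adjusted p = 0.688). The SD over homozygotes was 3.97 CPM for Itgb8 and 21.9 CPM for Itgb5.

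The fibronectin receptor subunit Itga5 and the nephronectin receptor subunit Itga8 overlapped between genotypes, at log2 fold changes of 0.75 ± 1.11 and 2.03 ± 0.99 (SE; edgeR adjusted p = 0.86 and 0.44), and at -0.40 and 2.14 without both libraries 3. Itgb7, a partner of alpha4 and alphaE in lymphocytes, and Itgb4, the partner of alpha6 in epithelia, also overlapped, at 1.22 ± 1.04 and -0.31 ± 1.24. They were at 0.73 and -2.14 without both libraries 3 (edgeR adjusted p = 0.967 and 0.84). Itgb6, known from epithelia, had 17 counts in all, 15 of them in homozygote library 2, and was not tested.

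Itgb1, the partner of most matrix-binding alpha subunits, was the most abundant of the 37 genes per kilobase, at 55.7 ± 9.79 CPM in homozygotes and 56 ± 10.3 CPM in heterozygotes (SD, n = 4 and 3). It had 178, 272, 219 and 241 CPM in homozygote libraries 1 to 4, against 194, 216 and 275 CPM in heterozygote libraries 1 to 3. The ranges covered each other. On the log2 scale the fold change was -0.0058 ± 0.19 (SE; edgeR adjusted p = 0.996), and its sign changed with the scaling of the libraries.

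None of the 3 laminin-binding alpha subunits passed the test. Itga7, a laminin receptor of muscle and of growing axons, had 84.2, 130, 64.1 and 141 CPM in homozygote libraries 1 to 4, against 141, 81 and 206 CPM in heterozygote libraries 1 to 3, with overlap. Its log2 fold change was -0.45 ± 0.34 (SE; edgeR adjusted p = 0.669), and 0.0926 without both libraries 3. Exons of Mettl7b and Itga7 overlap in GENCODE vM21, and no source used here gives the strand setting of the counting.

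Itga3 had 9.12, 2.64, 10.7 and 7.04 CPM in homozygote libraries 1 to 4, against 20.3, 14.4 and 11.4 CPM in heterozygote libraries 1 to 3. Every homozygote lay below every heterozygote, though homozygote library 3 and heterozygote library 3 were close. The log2 fold change of -1.06 ± 0.48 did not pass (SE; edgeR adjusted p = 0.395, 0.335 by DESeq2), and it was -1.46 without both libraries 3. Itga6, which pairs with beta1 or beta4, was at 0.38 ± 0.44 with overlap (SE; edgeR adjusted p = 0.815).

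Itga4, a receptor for VCAM1 and fibronectin, had 79.6, 70.8, 98.9 and 108 CPM in homozygote libraries 1 to 4, against 126, 96.1 and 142 CPM in heterozygote libraries 1 to 3. The groups overlapped by heterozygote library 2 alone. Its fold change, on the log2 scale, was -0.44 ± 0.21 (SE; edgeR adjusted p = 0.423), and exons of Itga4 and Cerkl overlap in GENCODE vM21. Itga9, a tenascin receptor, was at 0.0814 ± 0.31 (SE; edgeR adjusted p = 0.955). The collagen receptors were scarce: Itga11 had 1.82, 0.622, 3.61 and 0.0848 CPM in homozygote libraries 1 to 4, against 2.57, 0.0865 and 2.09 CPM in heterozygote libraries 1 to 3. Itga10 averaged 1.01 ± 0.71 CPM in homozygotes and 1.02 ± 1.14 CPM in heterozygotes (SD, n = 4 and 3). Itga1 and Itga2 had 38 and 42 counts in all and were not tested.

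Laminin chains were not all higher or all lower. Their summed level was 169 to 202 CPM in homozygotes and 168 to 203 CPM in heterozygotes. The median log2 fold change of the 8 tested chains was 0.26, with 5 positive and 3 negative. Without both libraries 3 it was 0.0429 over 9 tested chains.

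Lama1, the alpha1 chain of early embryonic basement membranes, had 28.4, 23.6, 36 and 26.5 CPM in homozygote libraries 1 to 4, against 11.9, 10.2 and 9.91 CPM in heterozygote libraries 1 to 3. The lowest homozygote lay well above the highest heterozygote. The spread within each genotype was small, at SDs of 5.27 CPM in homozygotes and 1.09 CPM in heterozygotes. Homozygotes over heterozygotes gave a log2 fold change of 1.42 ± 0.28 (SE; edgeR adjusted p = 0.0846, 0.000189 by DESeq2). It was 1.24 without both libraries 3 (edgeR adjusted p = 0.376) and stayed between 1.23 and 1.52 over 18 alternative settings.

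Lama4, the alpha4 chain of vessel walls and peripheral nerve, was lower in every homozygote library. It had 36.8, 38, 23.2 and 39.8 CPM in homozygote libraries 1 to 4, against 71.6, 45.3 and 67.3 CPM in heterozygote libraries 1 to 3. The groups did not overlap, with heterozygote library 2 nearest to the homozygotes. This gave a log2 fold change of -0.83 ± 0.26 (SE; edgeR adjusted p = 0.201, 0.0681 by DESeq2), and -0.61 without both libraries 3 (edgeR adjusted p = 0.694). Per kilobase of exon, Lama1 averaged 2.96 ± 0.54 CPM and Lama4 2.85 ± 0.63 CPM in homozygotes, against 1.1 ± 0.11 CPM and 5.09 ± 1.17 CPM in heterozygotes (SD, n = 4 and 3).

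**Figure D4:**
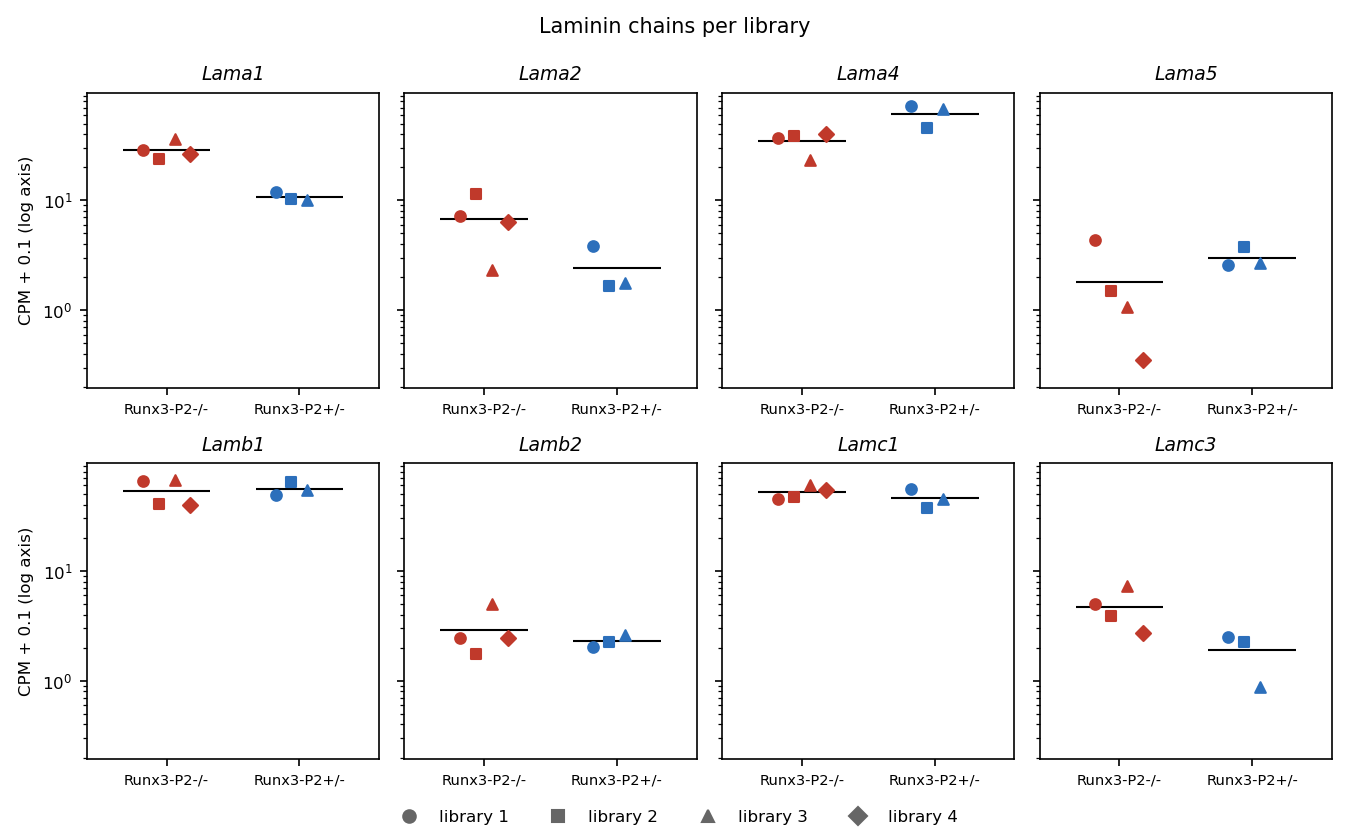
CPM plus 0.1 on a log axis of 8 laminin chains, 1 point per library, with Runx3-P2-/- left of Runx3-P2+/- and the group mean as a line. Lama1 and Lamc3 lie higher and Lama4 lower in homozygotes without overlap, while Lamb1 and Lamc1 overlap.

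Lama2, the alpha2 chain of muscle and Schwann cells, had 7.15, 11.3, 2.24 and 6.27 CPM in homozygote libraries 1 to 4, against 3.74, 1.56 and 1.65 CPM in heterozygote libraries 1 to 3. Homozygote library 3 lay within the heterozygotes, and the log2 fold change was 1.53 ± 0.66 (SE, edgeR adjusted p = 0.371). It was 1.63 without both libraries 3 (edgeR adjusted p = 0.615). Lama5 averaged 1.71 ± 1.74 CPM in homozygotes and 2.91 ± 0.63 CPM in heterozygotes (SD, n = 4 and 3), with overlap.

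Lamb1 and Lamc1, the beta and gamma chains that most laminins share, were the most abundant chains per kilobase. Lamb1 had 66.1, 40.4, 66.6 and 39.8 CPM in homozygote libraries 1 to 4, against 48.5, 64.8 and 54.2 CPM in heterozygote libraries 1 to 3. Lamc1 had 45.1, 47, 60.7 and 54 CPM in homozygote libraries 1 to 4, against 55.8, 37.2 and 44.9 CPM in heterozygote libraries 1 to 3. Both overlapped, at log2 fold changes of -0.068 ± 0.25 and 0.17 ± 0.22 (SE; edgeR adjusted p = 0.954 and 0.832).

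Lamc3, a scarcer gamma chain, had 4.89, 3.81, 7.13 and 2.63 CPM in homozygote libraries 1 to 4, against 2.42, 2.16 and 0.782 CPM in heterozygote libraries 1 to 3. Homozygote library 4 and heterozygote library 1 nearly met. On the log2 scale the fold change was 1.36 ± 0.65 (SE; edgeR adjusted p = 0.434), and 0.72 without both libraries 3. Lamb2 overlapped at 0.34 ± 0.65. Lama3 and Lamb3, chains of epithelial laminin, had 53 and 30 counts over all libraries and were not tested.

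Markers of other cell types gave these values beside the laminins. Among 14 sensory neuron markers, Avil (advillin) fell, to 25.6 ± 9.28 CPM in homozygotes, against 137.9 ± 47.4 CPM in heterozygotes (SD, n = 4 and 3). Its log2 fold change was -2.43, and -1.92 without both libraries 3, with no overlap in either. The edgeR adjusted p was 0.0493, and 0.058 without both libraries 3, where the edgeR call was lost. By DESeq2 the adjusted p was 1.4e-09, and 1.2e-07 without both libraries 3. The list had a median of -0.37, and -0.0342 without both libraries 3. Its summed level was 12595 to 22352 CPM in homozygotes and 22046 to 25112 CPM in heterozygotes, with the lowest sum in homozygote library 3. For 9 mesenchyme markers the median was 1.05 (0.13 without both libraries 3, over 10 markers) and the sums 132 to 464 CPM in homozygotes and 63.4 to 255 CPM in heterozygotes. For 9 neural crest and glia markers the median was -0.26 and the sums were 1130 to 2206 CPM in homozygotes and 1618 to 2156 CPM in heterozygotes. Medians were 0.98 for 3 endothelial, 3.13 for 4 skeletal muscle and -1.64 for 3 erythroid markers, and the 1 spinal cord progenitor marker tested was at 2.58. Single libraries held much of these sums. The muscle markers had 2.33, 220, 10.3 and 27.4 CPM in homozygote libraries 1 to 4. They had 13.5, 2.16 and 3.13 CPM in heterozygote libraries 1 to 3. Homozygote library 2 was also highest in Lama2, but the other homozygotes did not keep one order. Homozygote libraries 1, 3 and 4 had 7.15, 2.24 and 6.27 CPM of Lama2. Heterozygote libraries 1 to 3 had 3.74, 1.56 and 1.65 CPM of Lama2, in the order of their muscle markers. Heterozygote library 2 had 115 CPM of the erythroid markers, where homozygotes had 2.7 to 12.3 CPM and the other heterozygotes 0.696 and 2.65 CPM. Homozygote library 3 was highest in the endothelial markers, at 53.5 CPM, of which Pecam1 held 33.8, Egfl7 12 and Esam 4.25 CPM. Cdh5, Kdr, Tek and Cldn5 had at most 0.24 CPM there. No marker of these lists passed by edgeR other than Avil. Before adjustment 1 marker each of the mesenchyme, neural crest, endothelial, muscle and spinal cord lists was higher, and 4 sensory markers were lower. Of all genes tested, 7.75% were higher and 4.88% lower before adjustment. DESeq2 called 3 sensory markers lower, against 1.31% of all genes. It called 1 endothelial marker, Pecam1, higher, against 3.46% of all genes. The part of these cell types in the laminin values was not tested.

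Of 28 tested adaptors of integrins and focal adhesions, edgeR called 0, with 3 higher and 1 lower before adjustment. Of all genes tested, 7.75% were higher and 4.88% lower before adjustment. The DESeq2 calls of adaptors were 3 higher and 1 lower, against 3.46% and 1.31% of all genes. Fermt3, the kindlin of blood cells that activates integrins, had 61.8, 49.9, 199 and 44.4 CPM in homozygote libraries 1 to 4, against 2.18, 7.96 and 3.13 CPM in heterozygote libraries 1 to 3. No library overlapped, and the log2 fold change was 4.33 ± 0.69 (SE; edgeR adjusted p = 0.0626 and 0.0404 with its adjusted quasi-dispersion), and 3.37 without both libraries 3 (edgeR adjusted p = 0.0878). Tns1, a tensin that links integrins to actin, had 1.97, 3.19, 4.33 and 1.61 CPM in homozygote libraries 1 to 4, against 5.61, 12.8 and 17.5 CPM in heterozygote libraries 1 to 3. Its log2 fold change was -2.10 ± 0.54 (SE; edgeR adjusted p = 0.149, 0.0159 by DESeq2), and -2.02 without both libraries 3 (0.467 by edgeR, 0.218 by DESeq2). The median of the list was 0.10, and 0.0412 without both libraries 3.

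Of 18 tested ligands of integrins, edgeR called 0, with 5 higher and 0 lower before adjustment. Of all genes tested, 7.75% were higher and 4.88% lower before adjustment. The DESeq2 calls of ligands were 3 higher and 0 lower, against 3.46% and 1.31% of all genes. Icam1, a ligand of beta2 integrins, had 2.7, 12.8, 24.1 and 4.66 CPM in homozygote libraries 1 to 4, against 1.4, 1.21 and 0 CPM in heterozygote libraries 1 to 3 (edgeR adjusted p = 0.192, 0.00487 by DESeq2). Icam4, a red cell ligand of integrins, had 16, 11, 39 and 0 counts in homozygote libraries 1 to 4 and 0 in every heterozygote library (edgeR adjusted p = 0.237). Both were highest in homozygote library 3, and without both libraries 3 the DESeq2 adjusted p of Icam1 was 0.219. The median of the list was 0.69, and 0.32 without both libraries 3, where DESeq2 called 0.

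Of 25 tested genes for other laminin receptors and basement membrane parts, edgeR called 0, with 2 higher and 2 lower before adjustment. These counts were close to the shares of all genes tested, 7.75% higher and 4.88% lower. DESeq2 called 0 of the 25, against 4.77% of all genes. Agrn, which encodes the laminin-binding proteoglycan agrin, had 258, 390, 271 and 376 CPM in homozygote libraries 1 to 4, against 478, 510 and 440 CPM in heterozygote libraries 1 to 3 (log2 fold change -0.56 ± 0.18 SE; edgeR adjusted p = 0.228). Sparc, a matrix glycoprotein, had 351, 255, 529 and 250 CPM in homozygote libraries 1 to 4, against 248, 186 and 208 CPM in heterozygote libraries 1 to 3 (0.69 ± 0.27 SE; edgeR adjusted p = 0.307). Neither gene overlapped between genotypes, and the median of the list was 0.0248, and -0.0693 without both libraries 3.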

How the data were processed

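The deposited table holds the authors' raw counts per gene and library. Per the submitters' processing notes, the tools were TopHat 1.4.0, HTSeq and DESeq2 1.2.8, and the build was mm9. No source used here gives the annotation or strand setting. The deposited normalized signal (raw reads divided by 1 factor per library, by the authors) was left untested. The authors' deposited adjusted p-values and log2 fold changes, of heterozygote over homozygote, were used for comparison with the sign turned; no source used here says whether they were shrunken. Whole-table counts were filtered with edgeR's filterByExpr (minimum count 10, minimum total 15) and scaled by TMM. They were tested with edgeR 4.0.16 under R 4.3.3 (glmQLFit with its default quasi-dispersion, glmQLFTest, two-sided), with p adjusted over 14040 genes. Standard errors are the log2 fold change over the square root of F. DESeq2 1.42.0 and limma 3.58.1 were alternatives. Steps were tested on simulated data. No library duplicated another of its genotype: chi-square over degrees of freedom ran from 30.7 to 76.4 between them. Exon lengths come from GENCODE vM21, another build, so levels per kilobase are approximate and no coordinates of the authors' genes are given.

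The integrin and laminin genes, the lists and the markers were chosen with earlier results of these data known. Values were given per library for genes with an unadjusted p below 0.05 or no overlap at a mean log2 CPM of at least 1, for the leukocyte integrins, and for the most abundant gene of each role. From the adaptor, ligand and basement membrane lists the called genes, or the 2 with the smallest p, were named. The same held for the sensory, leukocyte and platelet markers. Other markers were named after their values were seen, and the remaining marker lists are given mainly by medians and sums. Further genes were named to account for the other subunits, after their values were seen; 1 untested gene is not reported here. Every library has its own label date, and the labels name no batch, so no values within a batch could be given. Values of the lists without both libraries 3 were added after the data were seen. Heterozygote library 1 carries month 1 in its title but month 11 in its source name, and month 11 was used.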

Additional observations from a re-analysis of the deposited data

Results flagged for a closer look

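Itgb5 in homozygote library 3 stood at 53.8 CPM, far from the other 3 homozygotes, the nearest of which had 12.3 CPM. It was the single outlying value found by Dixon's criterion for 4 samples among the 29 tested integrin and laminin genes, a criterion that chance meets in about 1 of 20 groups.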

How the results depend on the processing

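No paired analysis was possible because the labels give the libraries dates and no shared replicate numbers. Of 338 values of single genes under alternative settings, 308 kept their direction and their side of the threshold, 9 kept the direction and passed, and 21 changed sign. The count of genes called was 7, and 61 with edgeR's adjusted quasi-dispersion, 668 with DESeq2, 80 with no count filter, 45 with at least 30 counts in 3 libraries, 3 with the date covariate and 12 without both libraries 3. Leaving out 1 library gave 1 (without heterozygote library 2 or 3) to 27 (without homozygote library 3). The count of integrin and laminin genes called was 0, and 6 with DESeq2. Itgam was the 1 called with no count filter, with at least 30 counts in 3 libraries and without homozygote library 3; over single libraries left out the count ran from 0 to 1. The leukocyte integrin median of 2.39 was 4.07 at the stricter filter, where Itgax was not tested, and ran from 2.04 to 4.79 over single libraries left out. The laminin median of 0.26 was -0.0711 with no count filter, 0.0728 in a narrower window of label dates, without homozygote libraries 1 and 3, 0.0429 without both libraries 3, and 0.0121 to 0.38 over single libraries left out. The median of the other integrins ran from 0.14 to 0.59. Signs changed for Itgb1 (0.00957 with DESeq2, 0.00956 with RLE scaling, 0.0232 with total counts, 0.17 in the window, 0.17 without both libraries 3, -0.0984 to 0.16 over single libraries left out), Itga11 (0.0224 with total counts, -0.89 to 0.50 over single libraries left out), Itgax (-0.81 with the date covariate, -0.16 in the window, -1.31 without both libraries 3), Itga7 (0.0926 without both libraries 3), Itgal (-0.0295 to 0.55 over single libraries left out) and Lamb1 (-0.19 to 0.0523 over single libraries left out). The cause was not tested. Itgav was at 0.52 in the window and 1.19 in all libraries.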
